A study of Mus musculus with 157 samples.

Results

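Heavy polysomes of LPS-activated B cells were compared with and without etoposide, a topoisomerase II poison that leaves double-strand breaks in DNA. The cells were splenic B cells of C57BL/6Babr mice. The LPS group was activated with LPS at 10 µg/ml for 48 h, and the LPS+ET group received LPS in the same way and then etoposide at 20 µM for 4 h. Both groups were given cycloheximide at 100 µg/ml for 3 min, which holds ribosomes on the mRNA, before cytoplasmic extracts were separated on sucrose gradients. Each gradient gave a library for each of fractions 4 to 16, of which 11 to 16 were collected as heavy polysomes, 8 to 10 as light polysomes and 4 to 7 as monosomes, and 1 further LPS library of fraction 17 was not used. Libraries were chosen by treatment and fraction alone, which gave 48 heavy libraries from 8 gradients (4 per group) out of 157 libraries from 12 gradients in the series. A further group, which received the ATM kinase inhibitor KU55933 before etoposide, was left out of the comparison. Each LUL tag of the column names (LUL15, LUL16, LUL17, LUL18) occurred once in each treatment, and the tags paired the gradients. Gradients that share a tag are called a pool below. The name is not from the labels and makes no statement on pooled animals. The level of an mRNA is the mean of its CPM (counts scaled by the library total) over the 6 heavy fractions of a gradient, and values below are given in the order LUL15, LUL16, LUL17, LUL18.

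An mRNA that is being translated carries several ribosomes at once and moves deep into the gradient, whereas one with a single ribosome stays with the monosomes. The level of an mRNA in heavy polysomes therefore depends both on how much of it the cell holds and on how densely it is loaded. DNA breaks activate the kinase ATM and stabilise the transcription factor p53, whose best known target genes halt the cell cycle, repair DNA or start apoptosis. LPS drives resting B cells into growth, division and antibody secretion through Toll-like receptor 4.

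The heavy libraries held 32306 to 3403708 counts in the LPS group and 33476 to 2665817 in the LPS+ET group. Of the 48 libraries, 6 held under 100000 counts, and 4 of these 6 were fractions of the LPS+ET gradient of pool LUL16. Heavy polysome levels of gradients of one group correlated across genes at r of 0.914 to 0.986 for LPS and 0.873 to 0.973 for LPS+ET, and at 0.868 to 0.924 between groups. Markers of other cells stayed low. The 13 T cell symbols summed to 117 to 159 CPM in LPS gradients and 114 to 228 in LPS+ET gradients, most of it Lck, and the 16 myeloid symbols summed to 41.1 to 64.3 and 62.3 to 175. Of the 8 myeloid markers tested none was called by limma (3 higher at an unadjusted p under 0.05) and 2 were higher by edgeR, with a median log2 change of 0.64, and their part in the results below was not tested. The B cell identity list summed to 14913 to 18141 CPM in LPS and 12468 to 14958 in LPS+ET, so the labelled cell type was present in each gradient. Fractions entered the library preparation at the same RNA concentration, so CPM is a share of a library and not an amount of mRNA per cell. The study describes the replicates as biological, and p-values measure the spread between these gradients.

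Etoposide changed the heavy polysome level of 1231 of 10824 genes tested (11.4%), of which 674 (6.23%) rose and 557 (5.15%) fell at an adjusted p under 0.01 (limma with the pool as a block, Benjamini-Hochberg adjustment). All 1231 moved in the same direction in the 4 pools, which the selection on these same 4 differences largely fixes. In 1069 of them the ranges of both groups were apart. Such a gap was found in 21.6% of all genes tested, with LPS+ET above in 12.3% and below in 9.28%. Rises were larger than falls. The median log2 change was 1.54 for mRNAs that rose and -1.01 for those that fell, with 207 rises and 15 falls past 2 on the log2 scale. The mRNAs that rose were scarce, with a median of 14.6 CPM in LPS and 49.2 CPM in LPS+ET, and 200 of them were at 5 CPM or less in LPS. The mRNAs that fell were abundant, with a median of 130 CPM in LPS and 61.0 CPM in LPS+ET. Changes are on the scale of log2(CPM + 1), which understates those of scarce mRNAs. The edgeR count test on summed heavy counts called 1272 genes (11.8%), 7.08% of those tested as higher and 4.67% as lower. Of them 773 (7.14%) were also called by limma, with 4.28% of genes tested higher and 2.86% lower by both. Without the pool block limma called 690. Leaving out pool LUL15 left 238 calls, and without LUL16, the pool of the shallow libraries, there were 2001. Without LUL17 there were 707 and without LUL18 there were 359. At an adjusted p under 0.05 limma called 2591 of the 10824 genes with all pools. At least as many were at an unadjusted p under 0.05, a count not given here. List counts at that unadjusted limit, above and below, are to be read against this large share.

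**Figure D1:**
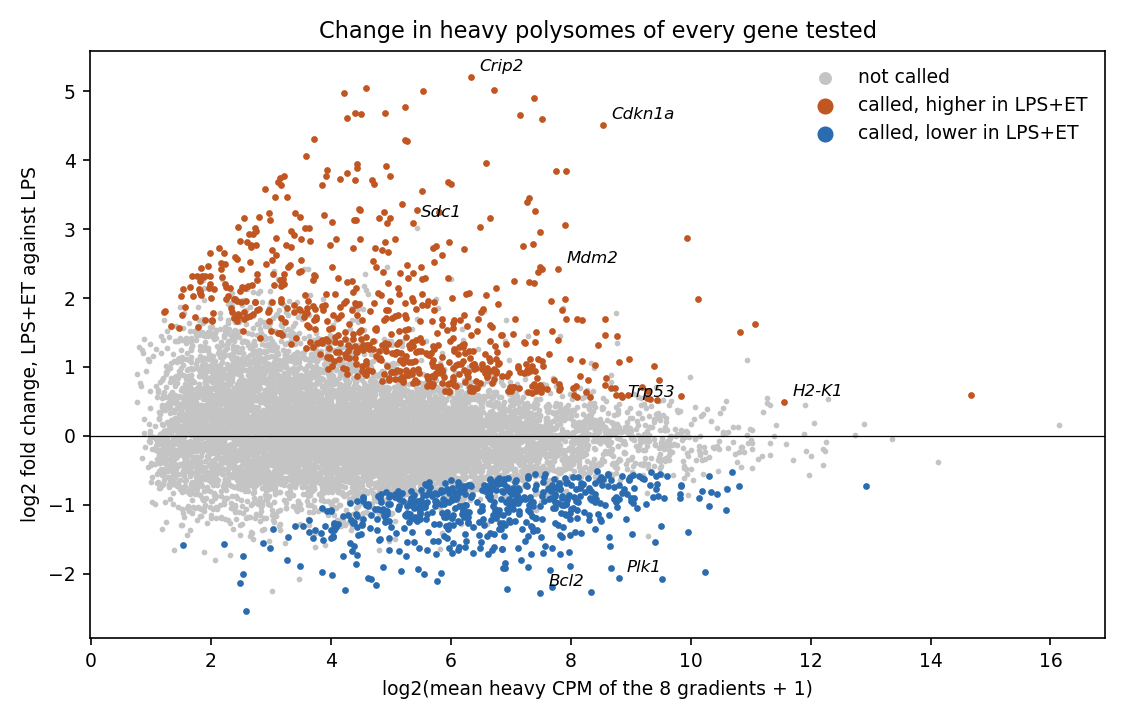
Log2 fold change in heavy polysomes (y axis) against the log2 mean heavy level of the 8 gradients plus 1 CPM (x axis), 1 point per gene tested (10824). The 674 called rises (orange) reach beyond 5 and lie mostly at low to middle levels, and the 557 called falls (blue) rarely pass -2 and lie at middle to high levels.

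The largest rises were in Crip2, Ckmt1, Cdh23, P2rx7, Notch3 and Prrg4. Crip2, which encodes a LIM-domain protein, was at 4.25, 2.50, 2.53 and 2.87 CPM in LPS and at 212, 75.9, 138 and 200 CPM in LPS+ET, a log2 change of 5.20 ± 0.22 (SE, n = 4 pools, limma adjusted p = 3.06e-05). The groups lay far apart, and the LUL16 gradient was the lowest of the treated ones. P2rx7, an ATP-gated cation channel, rose from a mean of 1.86 to 88.9 CPM. Ckmt1, mitochondrial creatine kinase, rose from 0.387 to 45.8 CPM, and the receptor Notch3, at 0.138 CPM in LPS, rose by 4.97 on the log2 scale. Prrg4, a membrane protein with a Gla domain, rose from 8.27 to 326 CPM. Cdh23, a cadherin of sensory hair cells, was the most uneven, at 2.33, 1.36, 13.1 and 3.83 CPM in LPS and 72.3, 473, 97.1 and 175 CPM in LPS+ET. Its main counted site lay in an intron, 68967 bases from the nearest transcript end annotated in GENCODE M21, and 83.1% of its heavy level in LPS+ET came from fraction 11. Cdh23 was called after the removal of only 1 of the 4 pools.

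Serpinb1a, a protease inhibitor, showed the largest fall of those selected, from a mean of 9.15 to 0.781 CPM (log2 change -2.54 ± 0.34). Bcl2, the inhibitor of apoptosis on chromosome 1 (106538178 to 106714274, minus strand, GRCm38), was at 340, 293, 281 and 254 CPM in LPS and at 108, 82.7, 37.8 and 36.5 CPM in LPS+ET, a change of -2.27 ± 0.23 (limma adjusted p = 0.000798). Each LPS gradient was above each LPS+ET gradient. Apobec3, an antiviral cytidine deaminase, fell from 335 to 76.7 CPM, and Slc25a53, a mitochondrial carrier, from 29.7 to 5.90 CPM. Cd22 and Ikzf1, the other large falls, belong to the B cell genes described below.

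Trp53, the mRNA of p53 itself (chromosome 11, 69580359 to 69591873, plus strand, GRCm38, counted at a site in its 3′ untranslated exon), was at 308, 514, 279 and 416 CPM in LPS heavy polysomes and at 513, 550, 439 and 545 CPM in LPS+ET. It was higher in LPS+ET in each of the 4 pools, but the LPS gradient of LUL16 overlapped the treated range. The log2 change was 0.47 ± 0.13, which did not pass the threshold (limma adjusted p = 0.037, edgeR adjusted p = 0.0275). In monosomes Trp53 was lower in LPS+ET, at 69.5, 128, 48.6 and 94.2 CPM against 121, 161, 106 and 124 CPM in LPS. The heavy change exceeded the monosome change by 1.13 ± 0.24 on the log2 scale, again short of the threshold (limma adjusted p = 0.0158). Along the gradient its level was highest in fraction 13, at 706 ± 160 CPM (SD, n = 4) in LPS and 1058 ± 476 CPM in LPS+ET, and the groups overlapped there. In fraction 16 Trp53 was lower in LPS+ET in each pool, at 324 ± 44.3 CPM against 460 ± 136 CPM in LPS. Its mean log2 change in that fraction was -0.47, and the median of all genes tested was -0.40.

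Of the 14 tested members of the list of p53 and its direct regulators, Mdm2 and Sirt1 rose and Usp7 fell (median log2 change 0.08, against 0.035 over all genes tested). Over all genes tested limma called 6.23% higher and 5.15% lower. These are the shares against which this count and the list counts below are to be read. Mdm2, the ubiquitin ligase that degrades p53, was at 81.9, 62.8, 71.0 and 55.5 CPM in LPS and at 386, 250, 455 and 400 CPM in LPS+ET, a change of 2.42 ± 0.16 (limma adjusted p = 0.000119). The deacetylase Sirt1 rose by 0.95 and the deubiquitinase Usp7 fell by 0.74, a call that edgeR did not make (adjusted p = 0.0281). The list had 1 rise and no fall by limma without LUL15, LUL17 or LUL18, and 3 rises and 1 fall without LUL16, and its median was -0.18 with edgeR.

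Many p53 targets rose. In the list of targets that act in arrest and growth control 8 of 14 tested members rose and none fell, with a median log2 change of 1.92, and edgeR called 7. Without LUL15 the rises numbered 5. Cdkn1a, the cyclin-dependent kinase inhibitor p21 (chromosome 17, 29090979 to 29100722, plus strand), was at 26.7, 17.4, 56.1 and 29.3 CPM in LPS and at 654, 525, 757 and 915 CPM in LPS+ET. Its change of 4.51 ± 0.20 (limma adjusted p = 4.11e-05) separated the groups by far more than the spread within either. Phlda3, an inhibitor of Akt signalling, rose by 4.66 ± 0.28, the kinase Plk2 by 3.95 ± 0.46 and cyclin G1 (Ccng1) by 3.07 ± 0.17. Gadd45a, a stress sensor of the same list, was scarce, at 2.95 ± 1.25 CPM in LPS and 5.49 ± 3.82 CPM in LPS+ET, and was not called (0.54 with limma adjusted p = 0.412, 1.18 with edgeR adjusted p = 0.0372). Its change was negative in LUL16 and positive in the other pools, and without LUL16 it was 1.07.

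Among targets that act in cell death 6 of 10 tested members rose and Bid fell (median 1.72), with 8 higher and 1 lower by edgeR. The death receptors Tnfrsf10b and Fas rose by 3.55 ± 0.21 and 3.16 ± 0.27. Pmaip1 (Noxa) was at 51.2, 34.2, 80.9 and 50.2 CPM in LPS and at 295, 172, 430 and 313 CPM in LPS+ET, and Bbc3 (Puma) rose from 11.8 to 55.9 CPM. Both encode BH3-only proteins that counter Bcl2 family inhibitors, and neither gene's groups overlapped. Bid, another BH3-only protein, fell by 0.94 ± 0.19, and was called after the removal of only 1 of the 4 pools. In the feedback list 4 of 8 rose (median 0.80), among them Ppp1r13l (3.71), the phosphatase Ppm1d (1.89) and the ubiquitin ligase Rchy1 (0.90, not called by edgeR). In the list of repair and metabolism 6 of 16 rose and none fell (median 0.89), led by the epoxide hydrolase Ephx1 (3.39), the excision repair nuclease Ercc5 (2.85) and the translesion polymerase Polk (2.81).

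**Figure D2:**
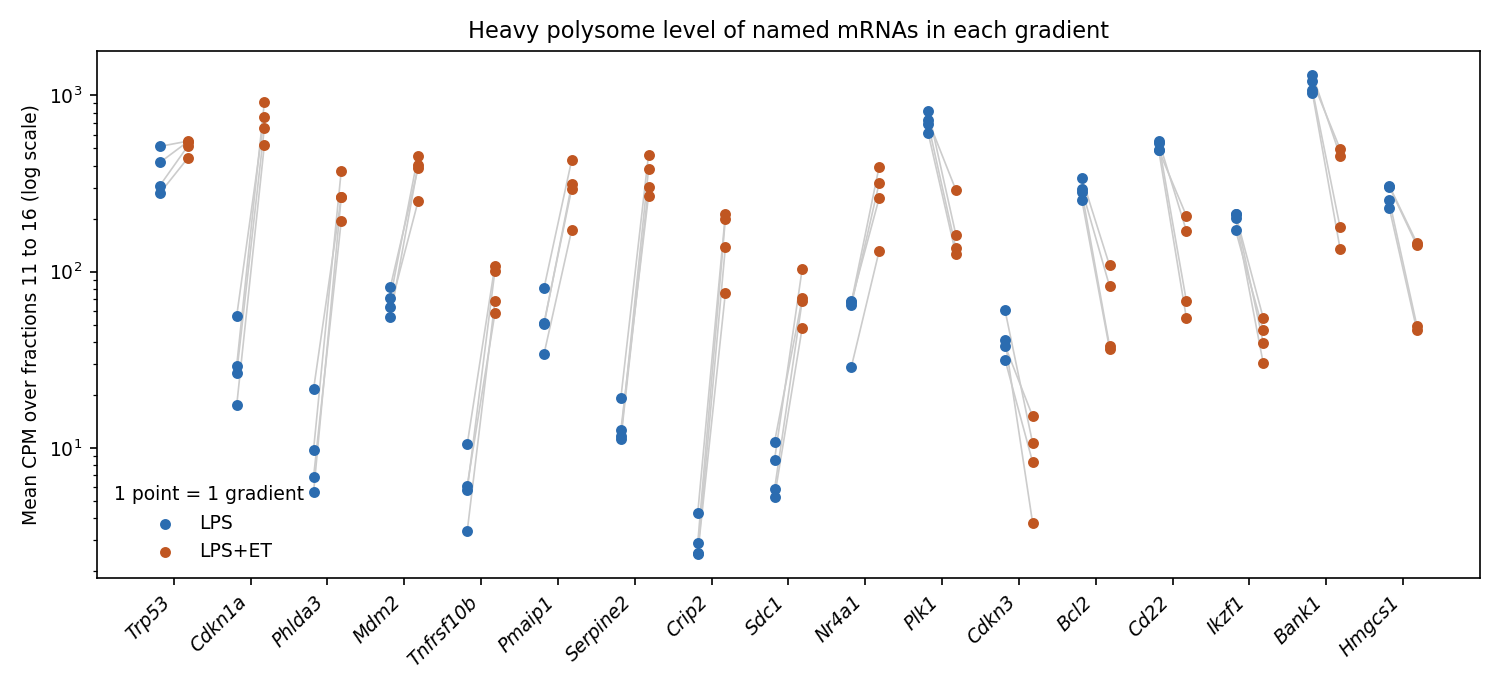
Heavy polysome level (mean CPM over fractions 11 to 16, log axis) of 17 named mRNAs in each of the 8 gradients, LPS in blue and LPS+ET in orange, with grey lines joining gradients of one pool. The groups are apart for each mRNA except Trp53, where the LPS gradient of LUL16 (514 CPM) lies within the treated range.

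Many mRNAs that act in mitosis fell. Of 48 tested members of the list 21 fell and 1 rose, with a median log2 change of -0.78 and 44 members below 0, and edgeR called 15 falls. By limma 5.15% of all genes tested fell and 6.23% rose. Plk1, the kinase that drives entry into and passage through mitosis, was at 725, 819, 689 and 610 CPM in LPS and at 291, 162, 136 and 125 CPM in LPS+ET, a change of -2.06 ± 0.18 (limma adjusted p = 0.000424). Even the highest treated gradient was below the lowest untreated one. The phosphatase Cdkn3 fell by 2.16 ± 0.30 and the helicase Pif1 by 1.97 ± 0.23, and the kinase Aurka fell from 222 to 78.1 CPM. Cdk1, the mitotic cyclin-dependent kinase, fell from 667 to 298 CPM and its partner cyclin B1 (Ccnb1) from 124 to 51.6 CPM. Top2a, the enzyme that etoposide traps, fell by 0.72 ± 0.14 by limma and was not called by edgeR (adjusted p = 0.0553). Gtse1, a G2 and S phase protein that is itself a p53 target, went the other way, from 13.2 to 92.5 CPM. The number of falls was 12 without the pool block, 10 without LUL15, 24 without LUL16, 11 without LUL17 and 8 without LUL18, and the list had 3 rises without LUL16. Of 38 DNA replication genes Pola1, the catalytic subunit of polymerase alpha, was the single call (-0.91 by limma, not called by edgeR), and the list median was 0.11. Limma called no gene of this list without LUL15, LUL17 or LUL18, and 2 higher and 3 lower without LUL16.

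Genes of mitosis often carry the cell cycle homology region (TTTGAA) and CCAAT boxes near their start, letters that the DREAM complex and NF-Y are known to bind. The RefSeq promoter table (GRCm38.p6, 250 bases before to 50 after the first listed start) covered 41 of the 48 mitosis genes tested, 18 of them called lower. TTTGAA on either strand (TTCAAA is its reverse complement) was in 14 of these 18 (77.8%) and in 15 of the 23 that were not called lower (65.2%). It was in 11.5% of the promoters matched to genes tested (7815) and in 18.1% of all 27025 promoters. CCAAT on either strand was in 16 of 18 (88.9%), in 17 of 23 (73.9%), in 39.7% of the promoters of genes tested and in 37.9% of all promoters. The motifs were therefore common in the list whether or not a member fell. The stretches around a match are shown for 6 genes that fell and, for comparison, for Cdc20 (-0.19) and Ccnf (0.20), which were not called. Capitals mark the match, and a match describes letters and does not show a binding site.
Cdkn3 (chr14:46760418-46760447, plus strand): ttccgcgcgtctTTCAAAgacttcctctga
Plk1 (chr7:122159453-122159482, plus strand): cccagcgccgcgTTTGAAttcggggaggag
Cenpf (chr1:189688067-189688096, minus strand): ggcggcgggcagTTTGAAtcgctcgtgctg
Aurka (chr2:172370521-172370550, minus strand): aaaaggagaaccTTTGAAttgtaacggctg
Ube2c (chr2:164769888-164769917, plus strand): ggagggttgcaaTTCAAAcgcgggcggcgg
Racgap1 (chr15:99651634-99651663, minus strand): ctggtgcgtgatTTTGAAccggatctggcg
Cdc20 (chr4:118437344-118437373, minus strand): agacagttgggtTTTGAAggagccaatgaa
Ccnf (chr17:24251406-24251435, minus strand): gctcccggcgcgTTTGAAaacggggcgggg

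Many mRNAs that define the B cell fell. Of 25 tested entries of the B cell identity list 13 fell and 1 rose (median -0.94), and edgeR called 10 falls. The limma shares over all genes tested were 5.15% lower and 6.23% higher. In bulk samples fewer cells of a type and less RNA per cell cannot be told apart. Cd22, an inhibitory co-receptor of the B cell receptor, was at 552, 491, 534 and 489 CPM in LPS and at 170, 207, 68.0 and 54.5 CPM in LPS+ET, a change of -2.26 ± 0.34 (limma adjusted p = 0.00693). Ikzf1, the transcription factor Ikaros, was at 212, 172, 213 and 201 CPM in LPS and at 54.6, 46.5, 39.5 and 30.2 CPM in LPS+ET. For both genes the groups did not overlap. Ikzf1 was called after the removal of each pool in turn, and Cd22 after the removal of only 1 of the 4 pools. Bank1, a signalling scaffold, fell from a mean of 1157 to 317 CPM and the IgE receptor Fcer2a from 72.3 to 22.9 CPM, whereas the transcription factor Spib rose by 0.70 (not called by edgeR, adjusted p = 0.0723). Without LUL15 the list had 5 falls and without LUL18 it had 7, and Spib was not called without LUL15, LUL17 or LUL18.

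Genes of plasma cells and immunoglobulin divided. Sdc1, the plasma cell surface proteoglycan CD138, was at 8.57, 10.8, 5.27 and 5.83 CPM in LPS and at 104, 70.4, 48.1 and 68.5 CPM in LPS+ET, a change of 3.09 ± 0.20 (limma adjusted p = 8.98e-05). The groups did not overlap. Ighg1 (1.25), the J chain Igj (1.11), the surface receptor Slamf7 (0.73) and the mu heavy chain Ighm (0.59) also rose by limma, so that 5 of 13 tested rose and 1 fell (median 0.22). Of the rises only those of Sdc1 and Ighg1 were called by edgeR, the list had 1 rise without LUL15 or LUL18 and 2 without LUL17, and the site counted for Slamf7 lay in an intron. In MHC class I and II genes 2 of 19 rose and 3 fell (median -0.06), against 6.23% and 5.15% of all genes tested. The class I heavy chain H2-K1 was at 2641, 2898, 2029 and 2458 CPM in LPS and at 3760, 3989, 3053 and 3258 CPM in LPS+ET, a change of 0.49 ± 0.09 that was called by limma (adjusted p = 0.00791) and not by edgeR (adjusted p = 0.0179). The peptide transporter Tap1 rose by 0.81, and the class II transactivator Ciita fell by 1.66, H2-DMb2 by 0.90 and the immunoproteasome subunit Psmb8 by 0.58. Neither Tap1 nor Psmb8 was called by edgeR, which called no rise and 4 falls in the list. Limma called no rise and 1 fall without LUL15 or LUL18, 1 and 1 without LUL17, and 3 and 6 without LUL16.

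Cholesterol synthesis genes fell as a group in number, with 11 of 22 called lower, none higher and a median of -0.90. Among all genes tested 5.15% were called lower. Hmgcs1, which makes HMG-CoA, was at 304, 307, 255 and 230 CPM in LPS and at 141, 145, 49.3 and 46.4 CPM in LPS+ET (log2 change -1.70 ± 0.26, limma adjusted p = 0.00432, edgeR adjusted p = 0.0179), with no overlap. The decarboxylase Mvd fell from 146 to 62.4 CPM and squalene epoxidase Sqle by 1.38. The count rested on the fit, since edgeR called 5 of the 22 and limma called 5 without the pool block. It was 6 with the shallow libraries left out, 2 without LUL15, 16 without LUL16, 6 without LUL17 and 2 without LUL18.

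Of 19 immediate early genes 6 rose and Klf2 fell (median 0.42), against 6.23% higher and 5.15% lower of all genes tested. Nr4a1, an orphan nuclear receptor induced by antigen receptor signals, was at 67.9, 67.0, 28.9 and 64.8 CPM in LPS and at 260, 392, 130 and 317 CPM in LPS+ET (log2 change 2.21 ± 0.14), and the AP-1 subunits Fosb, Junb and Jun rose by 2.16, 1.46 and 1.46. Fosb was near the floor, at a mean of 0.117 CPM in LPS and 4.17 CPM in LPS+ET. Its log2 change ran from 0.82 to 5.14 across settings, and it was called after the removal of only 1 of the 4 pools. Klf2, a factor of quiescent lymphocytes, fell by 1.91. Without LUL15 or LUL18 the rises numbered 3 and Klf2 was not called. Of 24 NF-kB subunits and targets only Cd83 was called (-0.86), and no gene was called without LUL15 or LUL18, while 1 rise and 2 falls were called without LUL16. In the interferon list Irf9, the DNA-binding subunit of ISGF3, rose by 0.75 (not called by edgeR, adjusted p = 0.0123) and Ifit3 fell by 1.86, of 28 tested (median -0.25, with 9 lower at an unadjusted p under 0.05). The falls numbered 6 without LUL16 and 0 without LUL18, and there was no rise without LUL15, LUL17 or LUL18.

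Among genes of the translation machinery, of 64 ribosomal protein genes tested 1 rose by limma, Rps27l (1.46 ± 0.14), a paralogue of Rps27 and a p53 target, and none fell (median -0.08). In this list edgeR called 1 rise and 2 falls (median -0.38). With the shallow libraries left out limma called 1 rise and 1 fall (median -0.30). None of 17 other mRNAs with a 5′ terminal oligopyrimidine tract was called by limma or edgeR, with a median of -0.31 and 8 lower at an unadjusted p under 0.05. Ribosome biogenesis had 5 falls of 30, in Nop58 (-1.01), Wdr43 (-0.99), Noc2l (-0.97), the RNA polymerase I subunit Polr1b (-0.95) and Rrp1b (-0.84), which is 16.7% of the list against 5.15% of all genes tested. Of these falls edgeR called 2, and in the list limma called 2 without LUL17 and none without LUL15 or LUL18 (12 lower at an unadjusted p under 0.05). In the integrated stress response Cebpb rose by 2.06 and Cebpg and Psat1 fell by 0.73 and 0.72 (neither called by edgeR), of 23 tested (median -0.39, with 13 lower at an unadjusted p under 0.05). The edgeR test called 3 falls in this list, and limma called 11 without LUL16 (median -0.62) and none without LUL15, LUL17 or LUL18. Of 25 genes of ER folding and secretion Herpud1 alone was called (-0.61, not by edgeR), and none was called without LUL15, LUL17 or LUL18. Among proteins of stress granules and P-bodies Caprin1 fell by 1.25 and was the single call in 16, and edgeR called none of the 16, nor did limma without LUL18 (8 lower at an unadjusted p under 0.05). Tia1 and its paralogue Tial1, which bind AU-rich and U-rich mRNA and gather in stress granules, were not called, at 27.6 and 20.5 CPM for Tia1 (limma adjusted p = 0.273) and 73.2 and 50.6 CPM for Tial1 (limma adjusted p = 0.019). The poly(A)-binding protein Pabpc1 was at 54.8 and 58.3 CPM.

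Genes of double-strand break signalling gave 1 rise and 1 fall in 29 (median -0.21), where all genes tested gave 6.23% rises and 5.15% falls. The calls were the strand annealing protein Rad52 (1.71 ± 0.21) and Atm, the kinase at the head of the response (-0.86 ± 0.14, not called by edgeR). Limma called neither a rise nor a fall in this list without LUL15 or LUL18, and edgeR called 3 rises and 2 falls. Hif1a, the oxygen-regulated transcription factor, was at 349, 204, 251 and 215 CPM in LPS and at 563, 270, 384 and 321 CPM in LPS+ET. It was higher in each pool by a log2 change of 0.57 ± 0.11 (limma adjusted p = 0.00768, edgeR adjusted p = 0.0326), although the groups overlapped. None of the 17 other tested genes of its list, which hold the glycolytic enzymes, was called by limma and none of the list by edgeR (list median -0.29, with 4 lower at an unadjusted p under 0.05). Without LUL16, the pool of the shallow libraries, 6 of the 18 were called lower and the median was -0.66, and without LUL15, LUL17 or LUL18 no gene of the list was called. None of 49 nuclear genes of the respiratory chain was called by limma or edgeR (median 0.23, 39 above 0, with 15 higher and 1 lower at an unadjusted p under 0.05), while limma called 3 higher without LUL16. Of the 7 mitochondrially encoded transcripts tested none was called by limma and 1 by edgeR (median 0.78, with 4 higher at an unadjusted p under 0.05), and limma called 3 higher without LUL17.

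**Figure D3:**
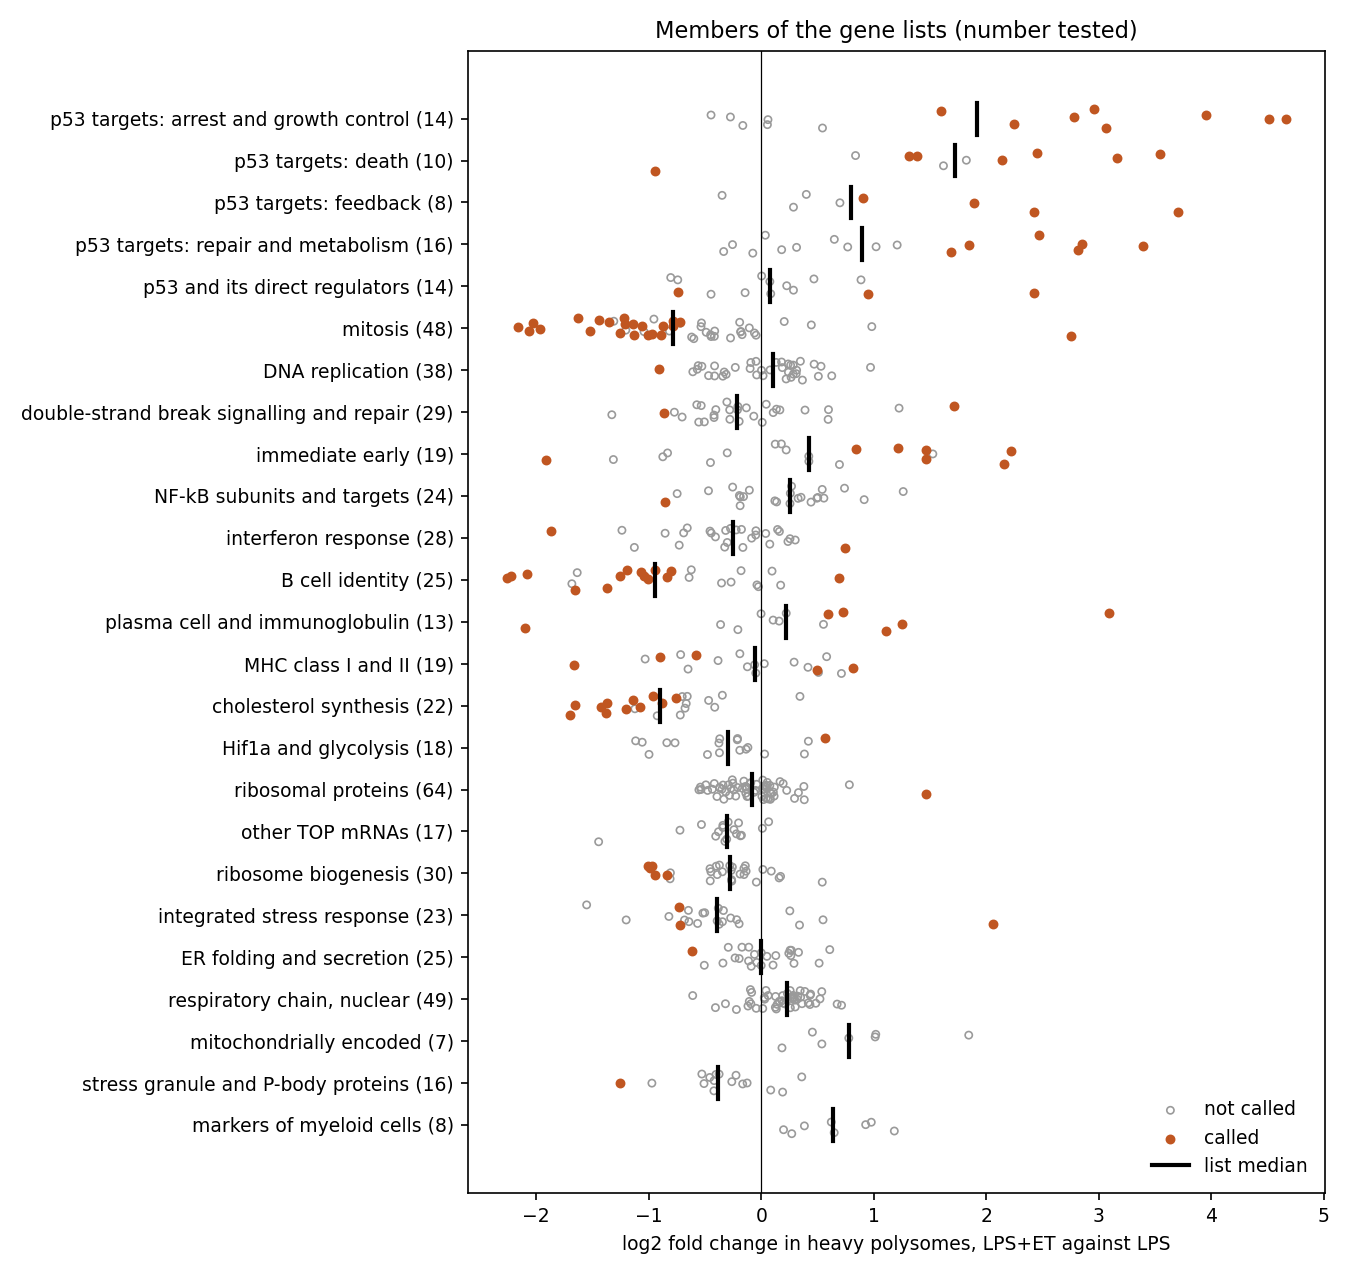
Log2 fold change in heavy polysomes (x axis) of each tested member of 25 gene lists (y axis, number tested in brackets), with called members filled in orange, the others open and the list median as a bar. The p53 target lists lie mostly to the right of 0 and the mitosis, B cell identity and cholesterol synthesis lists mostly to the left, while ribosomal proteins gather at 0 with Rps27l apart.

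Most changes in heavy polysomes were also present in the rest of the gradient. Of the mRNAs that rose, 496 of 536 measured in monosomes were higher there too (median 1.13, against 1.34 in heavy polysomes for the same genes), as were 612 of 615 in light polysomes. Of those that fell, 455 of 536 were lower in monosomes, by a median of -0.61, and 521 of 554 in light polysomes. Both sets were selected on their heavy change, which enlarges its median, so sizes in heavy polysomes and monosomes are not like for like. The share of all genes with the same sign in both is not given here. Fraction by fraction, genes called higher had medians from 1.00 in fraction 15 to 1.59 in fraction 12, and genes called lower from -0.04 in fraction 4 to -1.28 in fraction 16. The median of all genes tested was itself 0.39 in fraction 4 and -0.40 in fraction 16. It was 0.02 in fraction 12 and -0.04 in fraction 15. Within the heavy range, a single gene (Gm12216, 0.00924% of those tested) had a change in fractions 14 to 16 that differed from its change in fractions 11 to 13 by limma, while 1151 genes had an unadjusted p under 0.05.

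**Figure D4:**
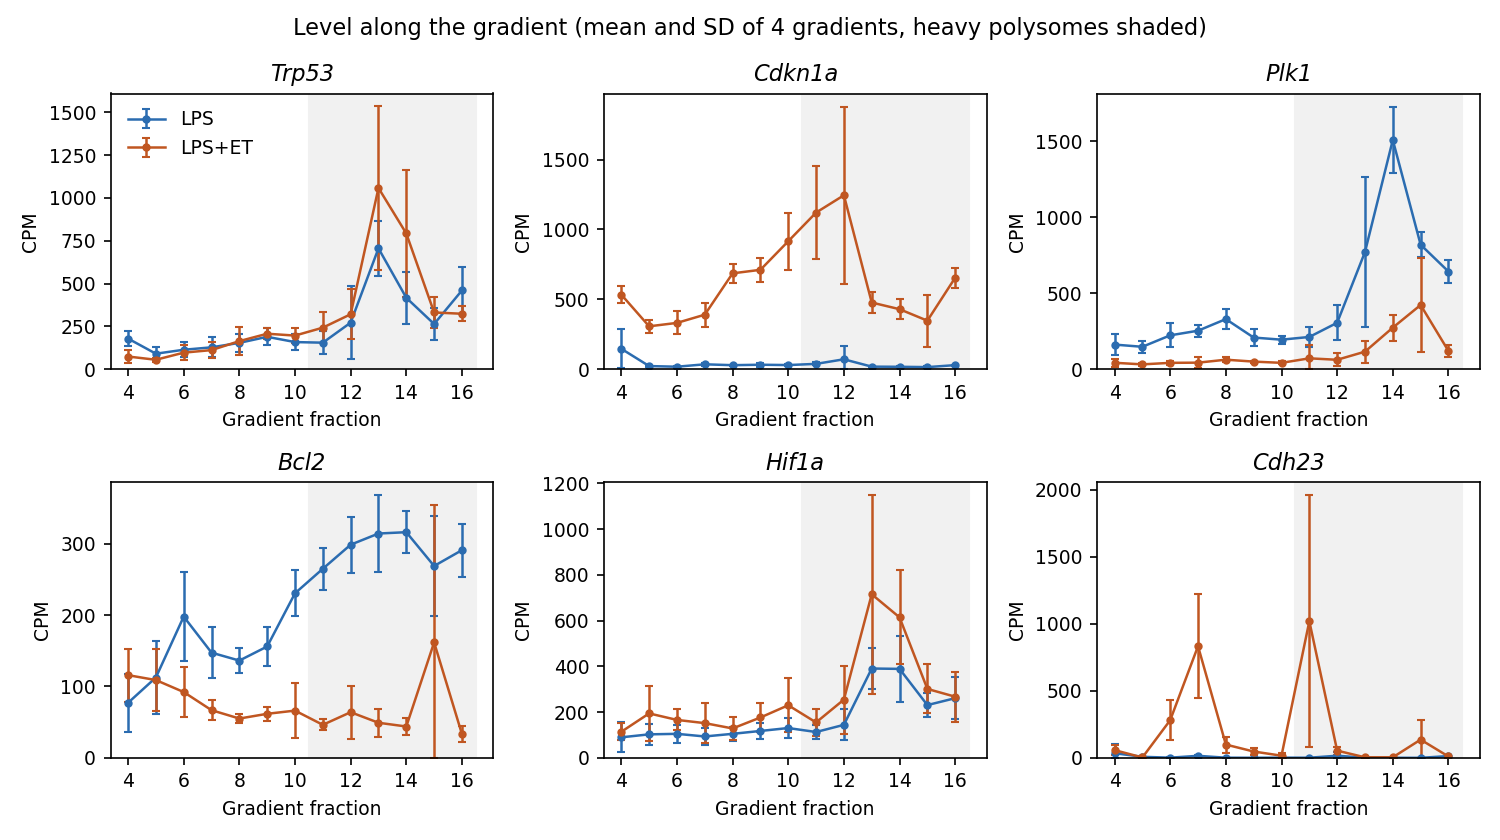
Level along the gradient (x axis, fraction number) in CPM (y axis) for 6 mRNAs, as the mean of 4 gradients with SD bars that stop at 0, LPS in blue, LPS+ET in orange and heavy polysomes shaded. Cdkn1a is higher in LPS+ET in each fraction, and Plk1 loses its peak of 1509 CPM in fraction 14 (274 CPM in LPS+ET). Bcl2 is at 116 CPM in fraction 4 in LPS+ET and 77.1 CPM in LPS, with overlapping gradients. It is far lower in LPS+ET in fraction 16, and Cdh23 has wide bars in fraction 11.

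The change in heavy polysomes differed from that in monosomes of the same gradients for 84 of 7776 genes (1.08%), 33 with a more positive change in heavy polysomes (0.424%) and 51 with a more negative one (0.656%). For 65 of the 84 the 2 changes had opposite signs, which the selection on their difference itself favours. The share of opposite signs over all 7776 genes is not given here. Serpine2, an inhibitor of thrombin and urokinase, rose by 4.59 ± 0.14 in heavy polysomes, from 11.2, 12.6, 19.2 and 11.6 CPM to 302, 270, 461 and 380 CPM, and its change in monosomes was 2.05, a difference of 2.54 ± 0.32 (limma adjusted p = 0.00105). Plk2 and the p53 target Zfp385a differed in the same direction by 2.76 and 1.76. Cox16 (0.71 in heavy polysomes and -1.16 in monosomes), Irf9 (0.75 and -0.40) and Ighm (0.59 and -0.41) had changes of opposite sign. mt-Nd6, a mitochondrial transcript that cytoplasmic ribosomes do not translate, had a difference of 2.89, at 5.91, 6.37, 14.4 and 7.13 CPM in LPS and 44.4, 47.0, 24.9 and 17.7 CPM in LPS+ET heavy fractions.

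Among genes with a more negative change in heavy polysomes, Bcl2 fell by 2.27 there and by 0.47 in monosomes, a difference of -1.80 ± 0.26 (limma adjusted p = 0.00264). In fraction 4 its level was 77.1 ± 40.2 CPM (SD, n = 4) in LPS and 116 ± 37.2 CPM in LPS+ET, with overlapping gradients. In fraction 16 it was 291 ± 37.2 and 33.3 ± 11.4 CPM, with no overlap. Its mean log2 change was 0.63 in fraction 4 and -3.15 in fraction 16. The median of all genes tested was 0.39 and -0.40 there. Apobec3 differed by -1.31. The glycolytic enzymes Ldha (-0.48 in heavy polysomes and 1.46 in monosomes) and Aldoa (-0.38 and 0.78) had opposite signs. The processed pseudogene Gm12671 (-0.98 and 1.72), with Gm3222 (-1.53 and 0.89) and Gm12033 (-0.91 and 1.13), Tspyl3 (-1.90 and 0.34) and Ndst3 (-0.96 and 1.84, counted in an intron) had the largest differences. Of the 51 genes 9 were pseudogenes (17.6%), against 219 of the 7776 tested (2.82%), whose reads may belong to a parent gene of nearly the same sequence. The kappa chain Igkc, with a more positive change in heavy polysomes, was at 0.16 there and -0.48 in monosomes. The number of calls was 408 with TMM factors (94 more positive and 314 more negative, against 33 and 51), and 297 with the shallow libraries left out. It was 0 without LUL15, 29 without LUL16, 169 without LUL17 and 13 without LUL18.

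**Figure D5:**
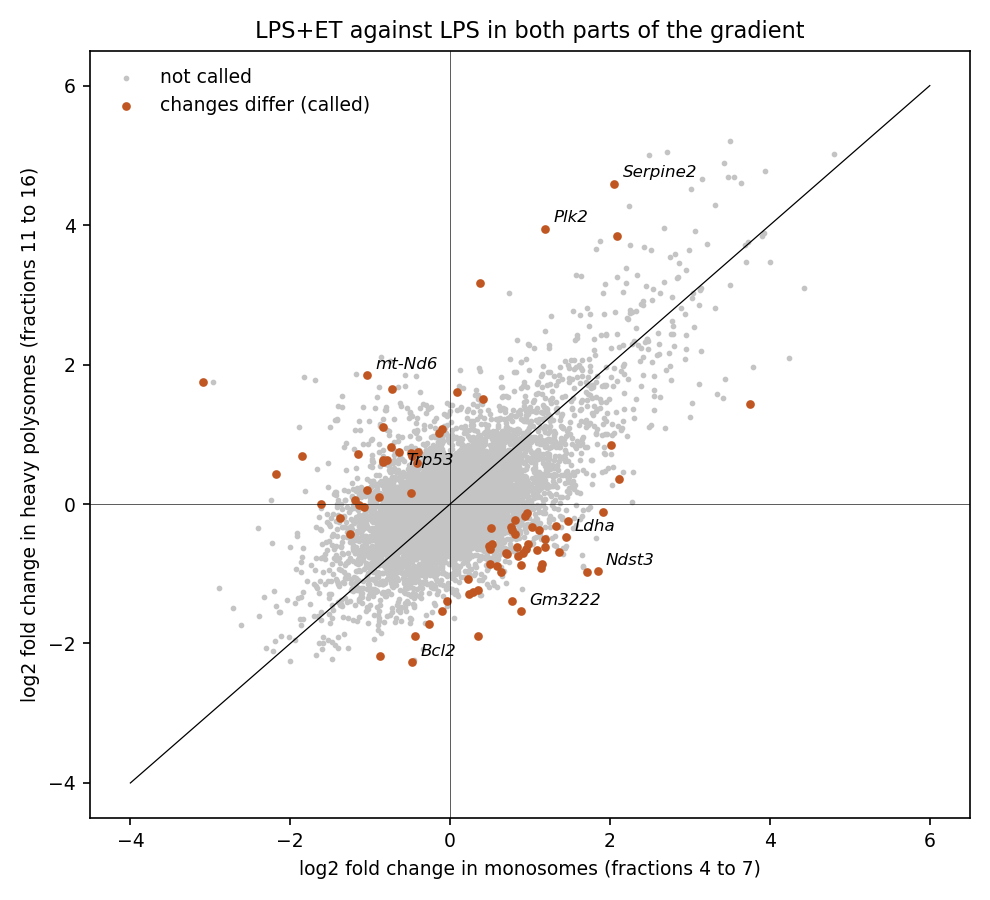
Log2 fold change in heavy polysomes (y axis) against that in monosomes (x axis) for the 7776 genes measured in both, with the line of equal change. The 84 genes whose changes differed are in orange, with Serpine2, Plk2 and mt-Nd6 above the line and Bcl2, Ldha, Gm3222 and Ndst3 below it, and Trp53, labelled for reference, was not called.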

How the data were processed

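PolyRibo 3′ end sequencing libraries were prepared from single fractions of sucrose gradients. Per the labels and the study's methods, the authors aligned reads to GRCm38 (TopHat2 2.0.12 and DESeq2 1.6.3 are named in the submitters' processing notes), removed PCR duplicates by random bases and counted tags at poly(A) sites per Ensembl gene. The deposited table held these counts, not normalized, for 19600 genes in 157 libraries. Of the 48 heavy columns, 24 matched 1 labelled sample and 24 (LUL16, LUL18) matched a treatment and fraction only.

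Each library was scaled to CPM, fractions 11 to 16 were averaged per gradient, and log2(CPM + 1) was fitted with limma 3.58.1 (R 4.3.3, trend and robust, two-sided) with the pool as a block. The tests of fractions 14 to 16 against 11 to 13 and of heavy polysomes against monosomes used within-gradient differences with the mean log level as trend covariate. The 10824 genes that passed filterByExpr of edgeR were tested, with 0.01 as the limit of the Benjamini-Hochberg adjusted p for a call. The count tests were edgeR 4.0.16 (quasi-likelihood) and DESeq2 1.42.0 on summed heavy counts. The fits were tested on simulated data. The correlation of deviations from group means was 0.353, 0.109, 0.197 and 0.398 for gradients that share a pool and -0.383 to 0.240 for others. Only LUL15 and LUL18 were above the range of the others. For LUL16 and LUL17 the pairing therefore rests on the shared tag alone.

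Members and lists were chosen with earlier results of these data known. The genes named were the mRNAs the study follows, the 6 largest rises and falls called by limma and edgeR alike, up to 4 called members per list and 1 in the other direction (or, with none called, the most abundant), and up to 5 genes per direction of the heavy against monosome test. Rrp1b, Ighm, Ldha, Aldoa, Igkc, Cdk1, Ccnb1, Top2a, Aurka, Cenpf, Ube2c, Racgap1, Cdc20, Ccnf and Gm12216 were chosen after their values were seen. Some genes that the rule selects are not reported here. Further alternatives varied the pseudocount, the scaling, the filter, the threshold, the fractions averaged and the pools.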

Additional observations from a re-analysis of the deposited data

Results flagged for a closer look

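In 200 groups of 4 gradients, 11 had 1 gradient whose gap to the nearest other was unusually wide for the group's range (Dixon's criterion), which is 5.5% of groups, and chance alone gives about 1 in 20. In the LPS group the LUL18 gradient was high for Psmb8 (1762 CPM, nearest 1454), Ercc5 (2.92 CPM, nearest 1.45) and Fcer2a (83.9 CPM, nearest 69.6) and low for Aurka (178.5 CPM). The LPS gradient of LUL17 was low for Nr4a1 (28.9 CPM, nearest 64.8) and high for mt-Nd6 (14.4 CPM, nearest 7.13) and Ppp1r13l (6.50 CPM, nearest 1.97). In LPS+ET the LUL15 gradient was low for Psmb8 (893.7 CPM) and high for Spib (347.5 CPM), and the LUL16 gradient, which holds the shallow libraries, was high for Ndst3 (16.4 CPM) and low for Cebpg (41.0 CPM).

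For 17 named genes the change in heavy polysomes differed from the change in monosomes by the limma test of the difference. The difference (heavy minus monosome, log2) was positive for mt-Nd6 (2.89), Plk2 (2.76), Serpine2 (2.54), Cox16 (1.87), Zfp385a (1.76), Irf9 (1.15), Ighm (1.01) and Igkc (0.64). It was negative for Ndst3 (-2.81), Gm12671 (-2.70), Gm3222 (-2.42), Tspyl3 (-2.24), Gm12033 (-2.05), Ldha (-1.93), Bcl2 (-1.80), Apobec3 (-1.31) and Aldoa (-1.16).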

How the results depend on the processing

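The number of genes called in heavy polysomes (1231) was 690 without the replicate block, 2031 with DESeq2, 2591 at an adjusted p under 0.05, 717 in fractions 11 to 13 alone and 564 with no filter, and 238 to 2001 without 1 pool (300 to 3983 in the edgeR fit, an alternative chosen after seeing the data). The count for heavy polysomes against monosomes (84) was 408 with TMM factors, 417 at 0.05, 297 with the shallow libraries left out and 0 to 169 without 1 pool. The count for fractions 14 to 16 against 11 to 13 (1) was 7 with TMM factors, 8 at 0.05, 0 with the shallow libraries left out, 6 at a mean of 10 CPM or more, 4 with a pseudocount of 5 CPM, 0 without the replicate block and 1 to 38 without 1 pool. The cause was not tested. All 85 called genes named kept their sign in every setting, and 40 were called without each pool in turn. Of 459 list medians under an alternative, 40 moved by more than the spread between pools, and medians near 0 changed sign in the lists of p53 and its regulators (-0.18 to 0.15), NF-kB (-0.0078 to 0.34), ribosomal proteins (-0.39 to 0.06), ER folding (-0.08 to 0.16) and T cell markers (-0.14 to 0.25). Genes that were not called changed sign as follows. Pabpc1 was at -0.12 with DESeq2, -0.090 with TMM factors, -0.15 and -0.13 with edgeR without and with the block, -0.38 in fractions 14 to 16, -0.28 with the shallow libraries left out and -0.0707 to 0.22 without 1 pool. Aldoa was at 0.35 and Ldha at 0.091 with edgeR without the block, Gadd45a at -0.22 and Gm12216 at 0.82 in fractions 14 to 16, Gm12216 at -1.31 to 0.21 and Cdc20 at -0.43 to 0.28 without 1 pool. Depth limited the LPS+ET gradient of LUL16 most, with 4 of its 6 heavy libraries under 100000 counts.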

Other observations

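Coding length was known for 10074 of the 10197 protein coding genes tested (98.8%). In 4 classes of that length with nearly the same number of genes, from the shortest (up to 870 bases) to the longest, 6.93%, 7.5%, 5.97% and 5.57% of genes were called higher by limma and 3.92%, 6.23%, 5.21% and 6.01% lower. By edgeR 5.50%, 8.77%, 8.12% and 6.64% were called higher and 4.95%, 5.51%, 4.22% and 4.02% lower. The contrast between the shortest and the longest class thus reversed between the tests in both directions. The median log2 change was 0.056, 0.013, 0.033 and 0.037, and the median coding length was 1272 bases for genes called higher, 1491 for genes called lower and 1392 for all. Of 332 pseudogenes tested 10 were called in heavy polysomes (3.01%), of 125 lincRNAs 7 (5.6%) and of the protein coding genes 1199 (11.8%).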
